A study of Mus musculus with 8 samples.

Results

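The genes described here are 10 mouse genes of interleukin-7 (IL-7) and progenitor cytokine signalling, namely Il7r, Flt3, Kit, Il2ra, Jak1, Jak3, Stat5a, Stat5b, Socs1 and Cish. They were chosen by name, by a rule that uses no measured value, and make up 10 of the 21755 protein-coding genes on chromosomes 1 to 19 and X of the GENCODE M21 annotation (GRCm38). 5-hydroxymethylcytosine (5-hmC), the base that TET enzymes produce by oxidising methylated cytosine, was mapped in pro-B cells by hMeDIP-seq, in which sheared DNA that carries 5-hmC is pulled down with an antibody and sequenced. HDAC7 is a class IIa histone deacetylase that represses genes of other lineages in B cell progenitors, and the comparison asks whether its loss alters 5-hmC at these genes. HDAC7-deficient mice (Hdac7 fl/-) gave 2 libraries and their Hdac7+/- littermates the other 2, the latter called wild-type although they too carry a null allele of Hdac7. All mice were C57BL/6, aged between 4 and 6 weeks, and the B220+ CD43+ IgM- cells were sorted from bone marrow. In the HDAC7-deficient mice Cre was expressed from the Cd79a locus (mb1-Cre), which acts from the earliest B cell stages, so cells of the gate that had not yet recombined the floxed allele, or that were not B cells, could be present. Whether the littermates carried Cre, and how many mice went into a library, was not given in the sources used here. The lists hold positions of DNA peaks and no RNA, so neither the level of any marker nor the identity of the sorted cells could be checked against them.

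IL-7 binds a receptor made of the IL-7Rα chain, encoded by Il7r, and the common gamma chain. JAK1, bound to IL-7Rα, and JAK3, bound to the common gamma chain, then phosphorylate STAT5, which enters the nucleus and activates genes for survival and growth, among them those of its own inhibitors. This signal is required for B lymphopoiesis in mouse bone marrow, while the receptor tyrosine kinases FLT3 and KIT carry signals of stem cells and early progenitors and are lost as B cells mature.

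The value given for a gene is the length of DNA under peaks, over the gene and 5 kb on each side, as base pairs or as percent of that window. Values of a genotype are given for replicate 1 and then replicate 2, together called a pair. A peak is a stretch over which the signal of a library exceeded a fixed cutoff. Over chromosomes 1 to 19 and X the 4 libraries held between 1303934 and 1413285 peaks, which covered between 229.7 and 273.3 Mb, with a median width between 146 and 172 bp. The lists give no height and no read count, so depth is unknown and counting error cannot be estimated. With 2 libraries against 2, an exact permutation test of a single gene cannot give a p below 0.33 (two-sided), so genes are described by whether the genotypes overlap, beside a limma fit across 21207 genes with at least 200 bp under peaks on average. All 10 genes passed this filter. On chromosomes 15 and 16, which hold Il7r and Socs1, HDAC7-deficient replicate 2 had 1.19 and 1.21 times the peak bases of the other libraries, relative to chromosomes 1 to 13. The window of Hdac7 itself held 10594 and 9520 bp under peaks in the wild-type pair and 7487 and 9964 bp in the HDAC7-deficient pair, which overlap and are no check of the deletion.

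Over the 10 windows together, peak bases were lower in both HDAC7-deficient libraries. Most peak bases lay in introns, which also make up most of the windows, 399358 of 559397 bp. The windows held 411 and 368 peaks over 67652 and 68246 bp in the wild-type pair, and 397 and 334 peaks over 57603 and 62806 bp in the HDAC7-deficient pair. Both HDAC7-deficient libraries were below both wild-type libraries in peak bases for 5 genes (Jak1, Jak3, Stat5b, Socs1 and Flt3), as they were for 17.4% of all genes tested. For 1 gene, Il2ra, both were above, against 10.2% of all genes tested, and for the other 4 genes the genotypes overlapped. These bases are not scaled for the library, and scaled to library totals 3 genes were lower (Jak1, Jak3 and Stat5b) and Il2ra was higher. By number of peaks, only Jak3 was lower in both HDAC7-deficient libraries, against 11.1% of genes, a call that with 10 kb on each side was lost at Jak3 and made at Socs1, and 0 of the 10 genes were higher, against 12.3%. In the limma fit 0 of the 10 genes were called, as were 0 of all 21207 genes (0%) at an adjusted p under 0.05. At an unadjusted p under 0.05 there were 541 genes, of which 1, Jak3, was among the 10. By number of peaks, 4 genes were lower without wild-type replicate 2 and 6 without HDAC7-deficient replicate 1, and 4 were higher without HDAC7-deficient replicate 2. With a library left out fewer libraries have to match for any gene. These counts therefore cannot be set beside the shares above, which used all 4 libraries.

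Log2 ratios of the 10 genes were mostly below 0, with values that rested in part on single libraries. The log2 ratio of HDAC7-deficient over wild-type scaled peak bases was negative for 9 of the 10 genes and for 52.5% of all genes tested, with a median of -0.21 over the 10 genes and -0.02 over all. Leaving out each library in turn, the median over the 10 genes was between -0.28 and -0.07, the latter without HDAC7-deficient replicate 2. The number of genes lower in peak bases became 7 without wild-type replicate 1 or either HDAC7-deficient library, and the number higher became 2 without either HDAC7-deficient library. Leaving out a library makes non-overlap easier to meet for any gene, and the share over all genes was not computed for these counts. Among the genes that overlapped, 3 of 4 changed the sign of their log2 ratio when wild-type replicate 1 was left out.

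**Figure D1:**
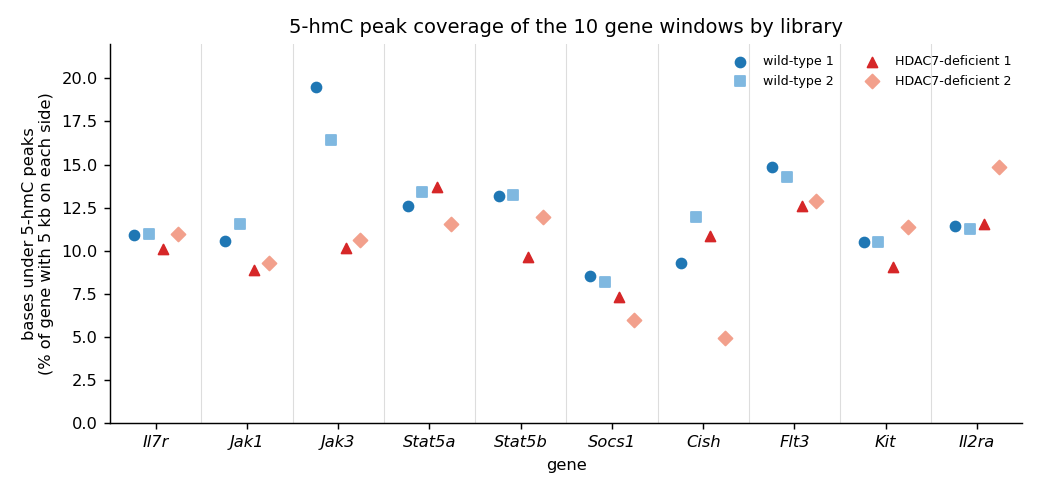
Bases under 5-hmC peaks as percent of each gene window (vertical axis) for the 10 genes (horizontal axis), 1 point per library, wild-type in blue and HDAC7-deficient in red. The widest separation between genotypes is at Jak3, with wild-type libraries at 19.5 and 16.4% and HDAC7-deficient libraries at 10.1 and 10.6%.

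Il7r (ENSMUSG00000003882, chr15:9505788-9530176, minus strand) encodes the IL-7Rα chain, and its window as a whole was level between genotypes while its promoter was not. There were 21 and 24 peaks over 3753 and 3774 bp in the wild-type pair, and 21 and 24 peaks over 3478 and 3766 bp in the HDAC7-deficient pair. HDAC7-deficient replicate 2 lay between the wild-type values, and the ratio of means was 0.962 ± 0.0542 (SD propagated from 2 replicates per genotype). The limma log2 ratio was -0.03 (SE 0.27), and it was 0.06 without wild-type replicate 1 and 0.02 without HDAC7-deficient replicate 2. Of the promoter, here 1000 bp upstream and 100 bp downstream of the gene start, peaks covered 20.7 and 0% in the wild-type pair and 49.7% in each HDAC7-deficient library. Both HDAC7-deficient libraries were thus above both wild-type ones, while the exons held 808 and 474 bp against 334 and 675 bp and overlapped.

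The widest gained region (with peaks in each HDAC7-deficient library and no wild-type one) in the Il7r window lies 555 to 843 bp upstream of the gene start, at chr15:9530731-9531019 (GRCm38, minus strand), outside any exon of Il7r. It is shown because it carries part of the promoter difference, with CpG dinucleotides, the usual site of 5-hmC, in capitals.
Il7r upstream region: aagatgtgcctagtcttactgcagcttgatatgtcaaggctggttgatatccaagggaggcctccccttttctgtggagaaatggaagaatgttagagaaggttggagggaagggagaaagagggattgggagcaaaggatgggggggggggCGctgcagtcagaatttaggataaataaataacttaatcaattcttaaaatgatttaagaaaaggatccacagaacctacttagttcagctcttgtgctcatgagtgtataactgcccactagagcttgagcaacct

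These 289 bases hold 1 CpG, and 58.1% of them are soft-masked as repeats in the RefSeq GRCm38 sequence. Of these, 203 and 182 lay under peaks of the HDAC7-deficient pair. A second part of the promoter difference lay at the gene start, where a merged region of 731 bp held 441 and 0 bp under wild-type peaks and 294 and 571 bp under HDAC7-deficient peaks. HDAC7-deficient replicate 2 has a raised density on this chromosome, and scaling by chromosome gave the whole window a log2 ratio of -0.11. The part of that density in the promoter values was not tested. Each HDAC7-deficient library had 547 bp of promoter under peaks, at positions that differed in part between them. With CpG sparse (6.69 per kb, the 11.4th percentile of 4343 protein-coding windows within 25% of its length), 9.13 to 16.1% of the CpG of the Il7r window lay under peaks of a library.

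The most covered region of the Il7r window with a peak in every library was 729 bp wide and lay in the downstream flank (chr15:9504176-9504904), with 393 and 442 bp in the wild-type pair and 545 and 410 bp in the HDAC7-deficient pair. Of the 49 regions of the window 5 had a peak in all 4 libraries, 3 were gained and 3 were lost. The widest lost region, with 134 and 282 bp in the wild-type libraries alone, overlapped the fifth exon block (exons of all transcripts merged), at chr15:9512037-9512318.

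**Figure D2:**
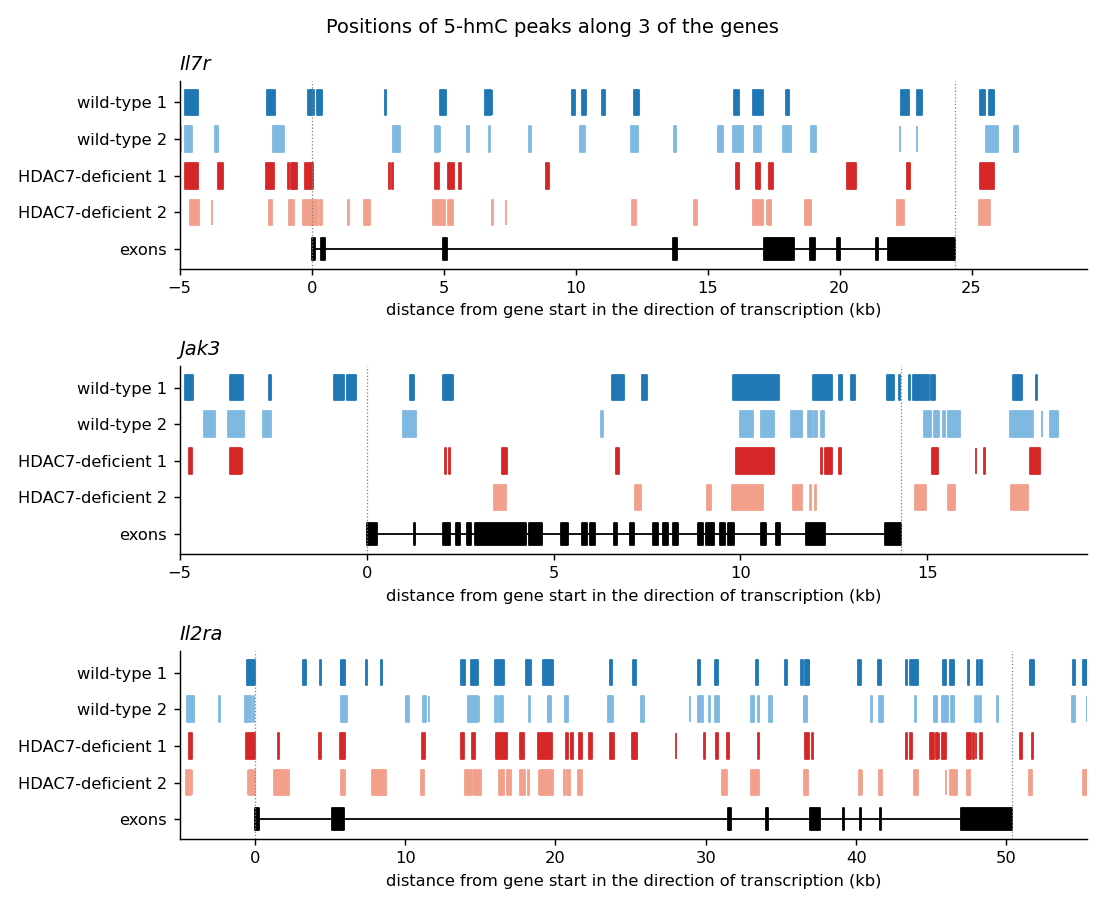
Positions of peaks (coloured bars, 1 row per library) and merged exons (black) along Il7r, Jak3 and Il2ra, with the horizontal axis in kb from the gene start in the direction of transcription and dotted lines at the gene ends. Upstream of Jak3 wild-type libraries hold 7 and 4 peaks and HDAC7-deficient libraries 3 and 0, while upstream of Il7r they hold 4 and 4 against 8 and 6.

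Flt3 (ENSMUSG00000042817, chr5:147330741-147400489, minus strand), the receptor tyrosine kinase of multipotent and lymphoid progenitors, ranked highest of the 10 in coverage among genes of like length and held less under peaks in both HDAC7-deficient libraries. It had 76 and 61 peaks over 11855 and 11384 bp in the wild-type pair and 65 and 56 peaks over 10033 and 10293 bp in the HDAC7-deficient pair. The peak bases did not overlap between genotypes (ratio 0.875 ± 0.0296, SD propagated), while the numbers of peaks did. Scaled to library totals or by chromosome, with peaks of at least 200 bp alone, or with 10 kb on each side, the bases overlapped as well. The log2 ratio in limma was -0.16 (SE 0.19, adjusted p = 1.00), and without wild-type replicate 1 it was -0.04. Of 119 regions in the window, 15 were found in every library, 6 were lost and 0 were gained. Near the start of the gene the promoter was higher in both HDAC7-deficient libraries, and a region downstream of it, chosen as the widest lost one, had peaks in the wild-type pair alone. The promoter was covered to 7.36 and 0% in the wild-type pair and to 21.6 and 27.9% in the HDAC7-deficient pair, mainly by peaks that overlapped between the 3 libraries. This region, at chr5:147399696-147400267, lay across the end of the first exon and into the first intron, with 506 and 169 bp under wild-type peaks and none under HDAC7-deficient ones.

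Of that lost region the first 300 bases of the intron, 270 to 569 bp downstream of the gene start (chr5:147399920-147400219, GRCm38, minus strand), are shown for their density of CpG, in capitals.
Flt3 first intron: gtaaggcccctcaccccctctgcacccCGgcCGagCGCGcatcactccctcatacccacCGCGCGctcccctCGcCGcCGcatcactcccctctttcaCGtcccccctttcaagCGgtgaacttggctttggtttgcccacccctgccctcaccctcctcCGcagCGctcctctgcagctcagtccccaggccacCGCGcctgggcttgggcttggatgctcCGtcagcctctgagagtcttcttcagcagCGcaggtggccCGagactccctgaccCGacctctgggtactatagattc
For contrast, a stretch 47556 to 47855 bp downstream of the gene start (chr5:147352634-147352933), in a 919-bp intronic region that was the most covered one shared by every library, lay wholly under peaks in each.
Flt3 shared intronic stretch: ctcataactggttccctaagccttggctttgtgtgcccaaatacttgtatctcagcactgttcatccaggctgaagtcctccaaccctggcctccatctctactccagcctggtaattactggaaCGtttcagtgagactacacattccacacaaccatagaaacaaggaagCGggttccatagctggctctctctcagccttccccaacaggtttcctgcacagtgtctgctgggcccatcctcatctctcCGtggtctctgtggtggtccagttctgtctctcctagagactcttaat

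The first-intron stretch holds 20 CpG and the shared stretch 3, over the same length of 300 bases, and neither holds any soft-masked base. Peaks covered 256 and 141 bp of the first-intron stretch in the wild-type pair. Across the whole window 18.6 and 13.7% of CpG lay under wild-type peaks and 12.4 and 12.1% under HDAC7-deficient peaks, so for CpG as well the genotypes did not overlap. Exons of Flt3 were covered to 16.9 and 10.3% in the wild-type pair and to 7.46 and 6.91% in the HDAC7-deficient pair.

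Kit (ENSMUSG00000005672, chr5:75574916-75656722, plus strand) encodes the receptor of stem cell factor and stood out for its promoter and exons rather than its whole window. The window held 53 and 48 peaks over 9666 and 9624 bp in the wild-type pair and 63 and 50 peaks over 8310 and 10448 bp in the HDAC7-deficient pair. The HDAC7-deficient libraries lay on either side of the wild-type ones, and the log2 ratio of -0.02 (SE 0.19) was 0.07 without wild-type replicate 1 and 0.04 without HDAC7-deficient replicate 1. The Kit promoter was covered to 24.1 and 22.8% in the wild-type pair and to 6.73 and 11.4% in the HDAC7-deficient pair, the only one of the 10 promoters that was lower in both. With a promoter from 2000 bp upstream to 500 bp downstream the genotypes overlapped at Kit. Exons of Kit were also lower in both HDAC7-deficient libraries, with 693 and 718 bp under peaks against 171 and 317 bp, and its introns overlapped. A region of 385 bp across the gene start had peaks in every library, of 346 and 251 bp in the wild-type pair and of 74 and 223 bp in the HDAC7-deficient pair, so there the difference was in the width of the peaks and not in their presence.

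The 179 bases that end at the gene start, from the RefSeq promoter set (GRCm38, chr5:75574737-75574915, plus strand), are shown because the narrowing falls on them, with CpG in capitals.
Kit promoter: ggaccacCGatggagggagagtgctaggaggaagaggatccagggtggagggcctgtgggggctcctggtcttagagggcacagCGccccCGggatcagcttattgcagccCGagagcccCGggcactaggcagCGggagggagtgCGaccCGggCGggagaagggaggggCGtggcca

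This stretch holds 10 CpG and no soft-masked base. Peaks covered 165 and 179 of its bases in the wild-type pair, and 74 and 25 in the HDAC7-deficient pair. The most covered shared region of Kit lay in an intron 27740 bp downstream of the start (centre of chr5:75602282-75603030), with 590 and 740 bp against 478 and 395 bp. Its window was rich in CpG for its length (17.5 per kb, the 96.3rd percentile of 1968 windows), of which 8.86 to 12.1% lay under peaks of a library.

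Il2ra (ENSMUSG00000026770, chr2:11642807-11693193, plus strand) encodes CD25, the alpha chain of the IL-2 receptor, and was the 1 gene with more under peaks in both HDAC7-deficient libraries. It had 39 and 43 peaks over 6892 and 6798 bp in the wild-type pair, and 44 and 40 peaks over 6967 and 8987 bp in the HDAC7-deficient pair. HDAC7-deficient replicate 1 was 75 bp above the higher wild-type library, so the ratio of 1.17 ± 0.209 (SD propagated) rested mostly on replicate 2. A gap at least as large was found in 8.87% of 2863 windows of like length in the same direction and in 15.8% in the opposite direction. The log2 ratio was 0.23 (SE 0.21, limma, adjusted p = 1.00) and kept its sign with each library left out, between 0.13 and 0.34. With peaks of at least 200 bp alone, or with 10 kb on each side, the genotypes overlapped. The promoter of Il2ra was the most covered of the 10 on average over the libraries, at 42.5 and 38.9% in the wild-type pair and 55.5 and 42.9% in the HDAC7-deficient pair.

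The 250 bases of the RefSeq promoter of Il2ra shown here (GRCm38, chr2:11642542-11642791, plus strand, 16 to 265 bp upstream of the GENCODE start) lay wholly under peaks in both HDAC7-deficient libraries.
Il2ra promoter: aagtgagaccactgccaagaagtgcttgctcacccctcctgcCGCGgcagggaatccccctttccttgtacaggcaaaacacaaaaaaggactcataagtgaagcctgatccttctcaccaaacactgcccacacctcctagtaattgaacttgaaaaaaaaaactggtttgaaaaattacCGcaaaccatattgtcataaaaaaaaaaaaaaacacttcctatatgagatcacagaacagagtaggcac

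In wild-type replicates 1 and 2 peaks covered 249 and 116 of these 250 bases, which hold 3 CpG. The region around them, 611 bp wide, had peaks in every library. The widest gained region of Il2ra lay in the first intron (chr2:11644088-11645052), where HDAC7-deficient replicate 2 had 965 bp under peaks and replicate 1 had 80 bp. Of the CpG of the window 12.9 and 14.3% lay under wild-type peaks and 17.3 and 16.5% under HDAC7-deficient peaks. The mean share over the libraries was at the 94.1st percentile of windows of like length.

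Of the kinases, Jak3 (ENSMUSG00000031805, chr8:71676296-71690575, plus strand), which pairs with the common gamma chain, showed the largest difference among the 10 genes as a ratio, although that of Jak1 was larger in base pairs. It had 26 and 24 peaks over 4741 and 3991 bp in the wild-type pair, and 15 and 11 peaks over 2464 and 2574 bp in the HDAC7-deficient pair. Means were 4366 ± 530 bp (SD, n = 2) in the wild-type pair and 2519 ± 77.8 bp (SD, n = 2) in the HDAC7-deficient pair, a ratio of 0.577 ± 0.0723. Both the number of peaks and the bases were lower in both HDAC7-deficient libraries (exact permutation test, p = 0.33 for each, the smallest possible). The gap of 1417 bp between the nearest libraries was matched or exceeded in the same direction by 0.135% of 5199 protein-coding windows within 25% of its length, and in the opposite direction by 0.0577%. In limma the log2 ratio was -0.74 (SE 0.29), with an unadjusted p of 0.0211 and an adjusted p of 1.00, so it did not pass. Without each library in turn it was between -0.95 and -0.53, and over the gene body alone it was -0.39. The unadjusted p was 0.18 without wild-type replicate 1, 0.062 without HDAC7-deficient replicate 2 and 0.14 with peaks of at least 200 bp (limma), and it also missed 0.05 over the gene body.

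Much of the difference at Jak3 lay outside the gene body. The upstream 5 kb held 1086 and 912 bp under peaks in the wild-type pair and 395 and 0 bp in the HDAC7-deficient pair, and introns held 1855 and 1217 bp against 1206 and 1108 bp. Exons held 998 and 457 bp against 375 and 561 bp and overlapped, as did the downstream flank. Its promoter was under peaks in wild-type replicate 1 alone, at 41.7%. Neighbouring genes share part of the window, Insl3 with 1362 bp inside the gene and B3gnt3 with 4820 bp of the downstream flank, and both were also lower in both HDAC7-deficient libraries, as were 17.4% of all genes tested. Insl3 had 2909 and 2708 bp under peaks against 1774 and 2097 bp, and B3gnt3 had 5167 and 5230 bp against 3852 and 3449 bp, in windows drawn the same way. Another neighbour, Unc13a, shares 462 bp and overlapped between genotypes, at 8540 and 9542 bp against 8618 and 5634 bp.

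The widest lost region of Jak3 lies 2560 to 2780 bp upstream of its start (chr8:71673516-71673736, GRCm38, plus strand) and is shown as the part of the flank where the presence of peaks separates the genotypes, with CpG in capitals.
Jak3 upstream region: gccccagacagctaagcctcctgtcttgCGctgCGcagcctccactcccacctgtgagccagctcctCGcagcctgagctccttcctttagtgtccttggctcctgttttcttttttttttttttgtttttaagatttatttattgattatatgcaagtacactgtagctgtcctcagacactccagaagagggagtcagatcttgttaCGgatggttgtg

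It holds 4 CpG and is 55.7% soft-masked, and peaks covered 45 and 208 bp of it in the wild-type pair. The most covered region of the gene, by contrast, was shared by every library, 1169 bp wide over the nineteenth exon block and its neighbours (chr8:71686082-71687250), with 1152 and 725 bp in the wild-type pair and 1035 and 803 bp in the HDAC7-deficient pair. It contained an unbroken run of 361 bp under peaks of all 4 libraries, the longest such run in the named regions of the 10 genes, and 41 CpG. A gained region of 352 bp over the sixth exon block held 23 CpG, with 135 and 331 bp under HDAC7-deficient peaks. Jak3 had 30.6 CpG per kb, at the 99.5th percentile of its like-length windows. The share of CpG under peaks was 18.95 and 13.8% in the wild-type pair and 9.01 and 14.4% in the HDAC7-deficient pair, which overlap.

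Jak1 (ENSMUSG00000028530, chr4:101152367-101265282, minus strand), the kinase bound to IL-7Rα, is the longest of the genes and was also lower in both HDAC7-deficient libraries. It held 78 and 72 peaks over 13001 and 14224 bp in the wild-type pair and 79 and 63 peaks over 10936 and 11407 bp in the HDAC7-deficient pair. Numbers of peaks overlapped between genotypes, as did their mean widths, of 167 and 198 bp per peak against 138 and 181 bp. The ratio of bases was 0.821 ± 0.0576 (SD propagated), and the limma log2 ratio was -0.25 (SE 0.17, adjusted p = 1.00), between -0.32 and -0.18 with each library left out. In 3.14% of 1527 windows of like length the gap was at least as large in the same direction, against 0.589% in the opposite direction. Exons, introns and the downstream flank were lower in both HDAC7-deficient libraries, with exons at 874 and 445 bp against 124 and 362 bp. The upstream 5 kb went the other way, with 311 and 493 bp against 881 and 691 bp. The downstream flank overlaps Raver2, whose own window was lower in both HDAC7-deficient libraries as well, at 8172 and 9356 bp against 8036 and 7229 bp.

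Stat5a (ENSMUSG00000004043, chr11:100859351-100885169, plus strand) and Stat5b (ENSMUSG00000020919, chr11:100780731-100850724, minus strand) encode the closely related transcription factors of the pathway and lie head to head, 8626 bp apart. Their windows share 1374 bp, so the pair is not fully independent. Stat5a had 35 and 22 peaks over 4516 and 4793 bp in the wild-type pair and 30 and 21 peaks over 4903 and 4139 bp in the HDAC7-deficient pair, which overlap. Its log2 ratio of -0.02 (SE 0.26) was 0.03 without wild-type replicate 1 and 0.20 without HDAC7-deficient replicate 2. Stat5b had 62 and 54 peaks over 10539 and 10568 bp in the wild-type pair and 57 and 55 peaks over 7721 and 9578 bp in the HDAC7-deficient pair. Both HDAC7-deficient values for Stat5b were below the wild-type ones (ratio 0.820 ± 0.124, SD propagated, limma log2 ratio -0.26, SE 0.19, adjusted p = 1.00).

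In both genes the introns were lower and the upstream flank was higher in the HDAC7-deficient libraries. Introns of Stat5a were covered to 15.5 and 15.7% in the wild-type pair and to 11.9 and 7.95% in the HDAC7-deficient pair, and those of Stat5b to 13.9 and 14.1% against 9.40 and 11.6%. The upstream 5 kb of Stat5a was covered to 14.3 and 13.3% against 22.6 and 17.9%, and that of Stat5b to 14.3 and 11.7% against 16.3 and 22.1%. These flanks share 1374 bp, since the genes are transcribed away from each other from neighbouring starts. The shared stretch held 379 and 156 bp under peaks in the wild-type pair and 616 and 440 bp in the HDAC7-deficient pair. Outside it neither flank separated the genotypes, so the higher flanks of Stat5a and Stat5b are not separate results. The window of Stat3, which overlaps the downstream flank of Stat5a, was lower in both HDAC7-deficient libraries, at 9454 and 7658 bp against 7555 and 6764 bp. The Stat5a promoter had no peak in either wild-type library and was covered to 4.55 and 32.2% in the HDAC7-deficient pair. That absence depended on where the promoter ended, since a wild-type replicate 2 peak began 104 bp downstream of the gene start, just past its edge. The RefSeq promoter at chr11:100859406-100859705 held 12 and 156 bp under wild-type peaks against 0 and 64 bp, which overlap.

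Over the whole window, 29.2% of Stat5b was soft-masked against 35.1% of its peak bases on average, and among the 10 genes the share under peaks ranged from 10.3% in Socs1 to 40.0% in Flt3.

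The inhibitors Socs1 and Cish, both of which are induced by STAT5 and act back on the pathway, are the shortest of the genes and hold the fewest peaks on average. Socs1 (ENSMUSG00000038037, chr16:10782240-10785536, minus strand) had 9 and 10 peaks over 1137 and 1086 bp in the wild-type pair and 10 and 8 peaks over 972 and 793 bp in the HDAC7-deficient pair. The bases were lower in both HDAC7-deficient libraries (ratio 0.794 ± 0.117, SD propagated), a gap found in 11.1% of 5484 windows of like length in that direction and in 7.49% in the other. Its limma log2 ratio was -0.28 (SE 0.49), which came to -0.06 without HDAC7-deficient replicate 2 and to -0.39 when scaled by chromosome. The Socs1 promoter had a single peak, of 107 bp, in HDAC7-deficient replicate 2, and was without peaks in the other libraries. Its neighbours Tnp2 and Prm3, which share 725 and 32 bp of the window, overlapped between genotypes. Cish (ENSMUSG00000032578, chr9:107296026-107302784, plus strand) had 12 and 10 peaks over 1552 and 2004 bp in the wild-type pair and 13 and 6 peaks over 1819 and 821 bp in the HDAC7-deficient pair. HDAC7-deficient replicate 2 was below all other libraries and replicate 1 between the wild-type ones, so the log2 ratio of -0.46 (SE 0.45) was 0.17 without replicate 2. Its promoter was slightly higher in both HDAC7-deficient libraries, at 85 and 80 bp against 107 and 249 bp, and both its flanks of 5 kb were lower. With a promoter from 2000 bp upstream to 500 bp downstream, Cish was lower in both HDAC7-deficient libraries instead.

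Along the gene, promoters were more often higher than lower in the HDAC7-deficient pair, while exons, introns and the downstream flank were more often lower. Promoters of 5 genes (Il7r, Stat5a, Cish, Flt3 and Il2ra) were higher in both HDAC7-deficient libraries, against 8.72% of all genes tested, and that of 1 gene, Kit, was lower, against 10.7%. Together the 10 promoters were covered to 14.4 and 7.24% in the wild-type pair and to 15.4 and 20.9% in the HDAC7-deficient pair, while over the promoters of all genes tested these shares were 10.2 and 11.4% against 9.90 and 10.2%. The count of 5 depended on the window, since it was 2 for promoters from 2000 bp upstream to 500 bp downstream and 3 for peaks of at least 200 bp, both settings chosen after the data had been seen. In the longer promoter Cish, not Kit, was the 1 gene lower in both HDAC7-deficient libraries, and Kit overlapped between genotypes. Without HDAC7-deficient replicate 1 the count in the shorter promoter was 7, and without wild-type replicate 2 a gene besides Kit was lower there. With a library left out fewer libraries have to match, and no share over all genes was computed. In the RefSeq promoters, drawn around RefSeq starts, Il2ra alone of the 5 genes was higher in both HDAC7-deficient libraries (249 and 116 bp against 289 and 284 bp). Il7r and Stat5a did not separate the genotypes there, Cish and Flt3 had no peak in any library, and Kit stayed lower. In the upstream 5 kb 4 genes were higher and 3 lower, against 13.7 and 17.2% of all genes. Stat5a and Stat5b are among the 4 and both rest on the stretch that their flanks share. In exons 0 were higher and 3 lower, against 12.2 and 14.7%, and in introns 1 was higher and 5 were lower, against 9.8 and 15.4%. In the downstream 5 kb 0 were higher and 4 lower, against 13.4 and 16.8%.

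**Figure D3:**
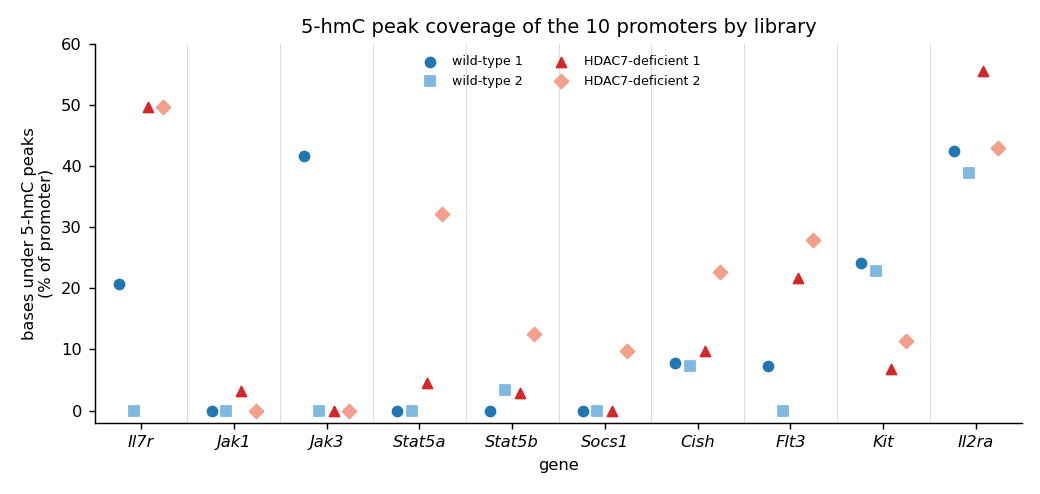
Bases under 5-hmC peaks as percent of each promoter, 1000 bp upstream and 100 bp downstream of the gene start (vertical axis), for the 10 genes (horizontal axis), 1 point per library. Both red HDAC7-deficient points lie above both blue wild-type points at Il7r, Stat5a, Cish, Flt3 and Il2ra, and below them at Kit.

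STAT5 binds the palindrome TTCNNNGAA, which reads the same on both strands and was searched as these letters in the RefSeq promoters, each of which spans 250 bp upstream and 50 bp downstream. It was present in 2726 of 32851 promoters of this set (8.30%), and in the promoters of 2 of the 10 genes, Cish with 2 matches and Il7r with 1. Peaks covered none of the 300 bases of the RefSeq promoter of Cish in any library. That stretch (chr9:107296409-107296708) lies downstream of the GENCODE start and does not overlap the Cish promoter measured above. In the RefSeq promoter of Il7r peaks covered 199, 0, 4 and 213 bases, in the order of the wild-type and then the HDAC7-deficient pair. The matched windows therefore did not separate the genotypes, and none of the sequences printed above holds a match.

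Coverage of most of the 10 genes was above that of other genes of their length, as described by the percentile among protein-coding windows whose length was within 25% of their own. Mean coverage over the 4 libraries ranged from 7.50% in Socs1 to 14.2% in Jak3, and 8 of the 10 genes were above the median of their like-length windows, which was between 9.76 and 10.2%. The highest percentiles were 92.8 for Flt3, 84.4 for Jak3, 82.3 for Il2ra, 82.0 for Stat5b and 80.6 for Stat5a. Il7r (58.6), Kit (58.2) and Jak1 (52.4) were close to the middle, and Cish (41.1) and Socs1 (29.7) were below it. By genotype, Jak3 was at 17.98% in wild-type and 10.4% in HDAC7-deficient libraries on average, below Il2ra (13.2%), Flt3 (12.7%), Stat5a (12.6%), Stat5b (10.8%) and Il7r (10.5%) in the latter, so its place rests on the wild-type pair. Neighbours in this order of coverage often differed by less than the spread of libraries, as with Kit (10.4%, libraries from 9.05 to 11.4%) and Jak1 (10.1%, libraries from 8.90 to 11.6%). With each library left out in turn, between 7 and 9 genes were above the median.

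**Figure D4:**
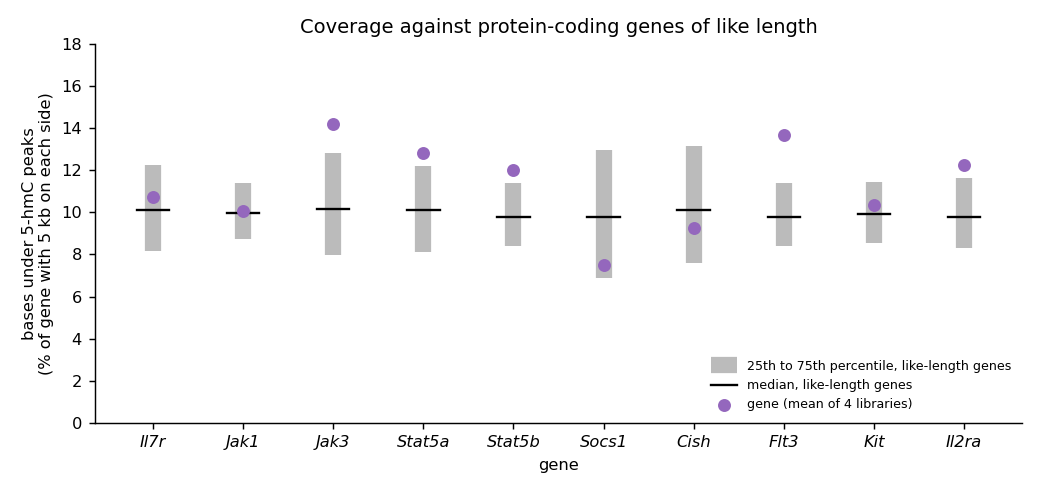
Mean peak coverage of each gene window over the 4 libraries (purple points) beside the median (black line) and the range from the 25th to the 75th percentile (grey) of protein-coding windows of like length, in percent of window bases. Jak3, Stat5a, Stat5b, Flt3 and Il2ra lie above the grey range, and Socs1 and Cish lie below the median.

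Most of the merged regions in these windows had a peak in a single library, as they did over all windows tested. Merging peaks that share at least 1 bp gave 725 regions over the 10 windows. Of these, 415 (57.2%, against 54.3% over all windows tested) had a peak in 1 library alone. A peak in all 4 was found in 77 (10.6%, against 11.9%). There were 17 gained regions (2.34%, against 2.83% over all windows tested) and 29 lost regions (4.00%, against 2.49%). Stat5b and Flt3 had 6 lost regions each (5.45 and 5.04% of their regions) and Il2ra had 4 gained ones (5.63%), while per region the lost ones were most frequent at Stat5a (6.25%) and the gained ones at Socs1 (8.33%). The shared regions were wider, with a median of 520 bp against 259 bp for gained and 235 bp for lost regions. A shared region joins peaks of more libraries, so greater width follows from how regions are defined and is no trait of 5-hmC. Counted per gene, 54 of 78 shared regions lay in introns, which make up most of the windows.

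The rest of the pathway was described over 42 further genes, the ligands, other receptors, kinases, STAT factors, inhibitors and STAT5 targets. None was called by limma (0 of 42), and 1 had an unadjusted p under 0.05. In peak bases 14 of the 42 genes (33.3%) were lower and 3 (7.14%) were higher in both HDAC7-deficient libraries, beside 17.4 and 10.2% of all genes tested, and the median log2 ratio was -0.10 beside -0.02. The 3 with the largest log2 ratio among genes that did not overlap were all lower. Flt3l, the ligand of FLT3, had 3197 and 2626 bp under peaks in the wild-type pair and 1565 and 1119 bp in the HDAC7-deficient pair, a log2 ratio of -1.05 (SE 0.37, unadjusted p = 0.0126, limma). Epor, the erythropoietin receptor, had 998 and 1699 bp against 516 and 674 bp, a log2 ratio of -0.9997 (SE 0.52). Socs3, an inhibitor of JAK kinases, had 1851 and 1990 bp against 835 and 1404 bp, a log2 ratio of -0.74 (SE 0.41). By role, 1 of 6 ligands, 5 of 15 receptors, 1 of 2 kinases, 2 of 5 STAT factors, 4 of 11 inhibitors and phosphatases and 1 of 3 STAT5 targets were lower, and the 3 higher genes were inhibitors or phosphatases.

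**Figure D5:**
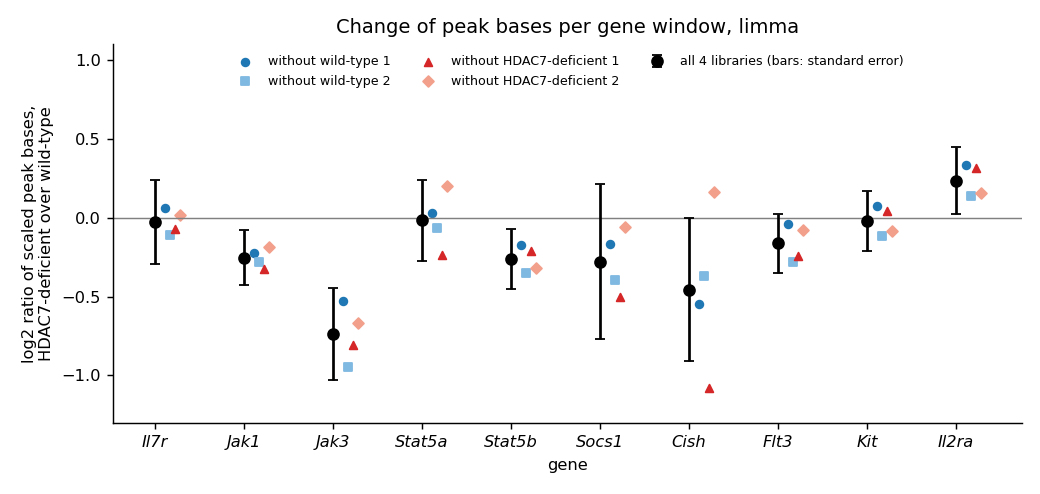
Log2 ratio of scaled peak bases, HDAC7-deficient over wild-type, from limma for the 10 genes, with black points and standard errors for all 4 libraries and coloured points with 1 library left out. Jak3 is at -0.74 and stays below 0 in every case, while Il7r, Stat5a, Cish and Kit lie on both sides of 0.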

How the data were processed

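The 4 hMeDIP-seq libraries of pro-B cells, 2 per genotype, were analysed as peak positions, other than counts or signal. Per the labels and methods, the authors trimmed reads (cutadapt 1.6 through Trim Galore 0.4.2), mapped them to mm10, normalized the signal with deepTools and called peaks per library with MACS2 (bdgpeakcall), requiring a signal over 250 along at least 10 bp and bridging gaps of up to 10 bp. The submitters' processing notes name Bowtie2 as a tool and the methods bwa. The deposited lists hold start and end alone, and while the methods have peaks that meet an input peak taken out, they do not say whether this preceded deposit.

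Peaks were measured in Python 3.11.15 (NumPy 2.4.6, with pandas 2.3.3), sequences were read with pysam 0.24.0, and figures were drawn with matplotlib 3.10.9. Peak bases per window were scaled to the sum over all gene windows, logged as log2 (bases + 100 bp) and fitted with limma 3.58.1 (R 4.3.3, two-sided, Benjamini-Hochberg), with genotype alone and at least 200 bp on average. Tested on simulated data for this comparison over 21207 genes, the fit recovered 32% of 100 genes changed 2-fold and 85% of 100 changed 4-fold, with 5 false calls. The simulated noise was independent between genes and followed a smoothed spread, without a shift of whole chromosomes. Genes with few bases under peaks were left unchanged, and how recovery in the real libraries differs was not tested. The study's own test needs reads and was not run. Genes and lists were chosen with earlier results of these data known. All 10 genes were described, each with its most covered shared and its widest gained and lost region, and of the pathway list the 3 largest ratios that did not overlap. Alternatives were the peak width, merging, flank, scaling, pseudocount, filter, replicate block and each library left out. That the replicates were separate mice is not stated, so p-values measure only the spread between these libraries. The input libraries were not analysed here. Part of the sequences is not reported here.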

Additional observations from a re-analysis of the deposited data

How the results depend on the processing

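Across the settings tried no gene of the 10 was called by limma, and the log2 ratios of Jak1, Jak3, Stat5b, Socs1 and Flt3 stayed negative and that of Il2ra positive. The other genes changed sign in places. The Il7r ratio was 0.068 with peaks of at least 200 bp, 0.020 with peaks within 100 bp merged, 0.16 with 10 kb flanks, and -0.11 to 0.059 when a library was left out. The Stat5a ratio was 0.012 with 10 kb flanks, 0.018 when scaled by chromosome, and -0.24 to 0.20 when a library was left out. The Cish ratio was 0.20 over the gene body alone, and -1.08 to 0.17 when a library was left out. The Kit ratio was 0.036 with peaks merged, 2.5e-04 when scaled by chromosome, and -0.11 to 0.073 when a library was left out. In peak bases, 0 genes were higher and 3 lower with peaks of at least 200 bp, 0 were higher with 10 kb flanks, and 3 were lower when scaled by chromosome or by total, with 1 to 2 higher and 5 to 7 lower when a library was left out. In numbers of peaks, 1 gene was higher over the gene body alone and 2 were lower with peaks of at least 200 bp, with 0 to 4 higher and 1 to 6 lower when a library was left out. Gained and lost regions numbered 10 and 18 with peaks of at least 200 bp, and 37 to 120 and 46 to 151 when a library was left out, since fewer libraries then have to match. The same holds for the counts of genes with a library left out, and no share over all genes was computed for these. With a promoter of 2000 and 500 bp 2 genes were higher and 1 was lower, Cish in place of Kit. With wider peaks 3 promoters were higher, and 5 to 7 were higher and 1 to 2 lower when a library was left out. The cause of these changes was not tested. With a replicate block limma called 3 of all genes and 0 of the 10, with a median ratio of -0.21. The deviations of libraries with the same number correlated at 0.0867 over genes, so the numbers are not shown to pair the libraries. Without the filter on low values limma called 2 genes, and without HDAC7-deficient replicate 1 it called 104 higher and 25 lower, while it called 1 without wild-type replicate 1 and 1 higher and 4 lower without HDAC7-deficient replicate 2. Peak lists without heights limit these values to presence and width.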
